A study of Mus musculus with 18 samples.

Results

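The 10 genes that mark or serve regulatory T cells followed here in mouse tumours are Foxp3, Ikzf2, Ikzf4, Il2ra, Ccr8, Tnfrsf4, Tnfrsf18, Il10, Lrrc32 and Gpr83. They were taken by gene identifier from the deposited gene table, where all 10 of the 10 were present among 21015 genes, and each was read beside Cd3e, a chain of the T cell receptor complex carried by all T cells, and Cd4, the coreceptor of helper and regulatory T cells. Bulk RNA was sequenced from tumours of MC38-OVA cells, which derive from a colon carcinoma of the mouse and make ovalbumin as a model antigen. Hosts were Adra2a KO mice (genotype label ADRA2A-/-) or wild-type (WT) mice, so only the host's cells, and not the tumour cells, lack the alpha2A-adrenergic receptor in KO hosts. KO hosts received clonidine (KO-Clonidine), guanabenz (KO-Guanabenz) or PBS (KO-Control), and WT hosts likewise received clonidine (WT-Clonidine), guanabenz (WT-Guanabenz) or PBS (WT-Control), by daily intraperitoneal injection. Clonidine and guanabenz are agonists of alpha2-adrenergic receptors. Each of the 6 groups had 3 libraries, the age given was 10 weeks, and tumours were taken at day 7. The sources used here do not give doses, the disrupted part of Adra2a or the mouse strain. For KO-Guanabenz, titles and treatment entries disagree, with Untreated entered for its 3 libraries; grouping follows the titles, and this is marked below as a label conflict. Whether libraries came from separate animals is not stated, and every p-value reflects only how these libraries vary, part of which may be technical.

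Regulatory T cells are a lineage of CD4+ T cells that restrain other immune cells. The transcription factor Foxp3 defines them, and they take up interleukin 2 through the high-affinity receptor chain encoded by Il2ra, whose signal passes through STAT5. In tumours they often carry high levels of the chemokine receptor Ccr8 and the costimulatory receptors Tnfrsf4 (OX40) and Tnfrsf18 (GITR), and part of their action runs through interleukin 10 and through latent TGF-beta held on the surface by GARP, the product of Lrrc32.

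Foxp3 (gene ID 20371) lies on chromosome X, plus strand, at chrX:7579676-7595243 in GRCm38. Tnfrsf4 (gene ID 22163, chr4:156013595-156016613) and Tnfrsf18 (gene ID 21936, chr4:156026322-156028894) are neighbours on the plus strand of chromosome 4, separated by 9708 bases. The windows from 250 bases before to 50 bases after the transcription start are shown for these 3 genes, since Foxp3 defines the lineage and the 2 neighbours encode related receptors. The sequences are RefSeq's on GRCm38.p6, read 5′ to 3′ on the plus strand. Capitals mark letters of an NFAT core (GGAAA) or of a STAT5 element (TTCNNNGAA), searched on both strands. The first Foxp3 window is chrX:7579426-7579725 and the second, at another annotated start, is chrX:7580233-7580532. The Tnfrsf4 window is chr4:156013445-156013744 and the Tnfrsf18 window is chr4:156026072-156026371.
Foxp3, first start: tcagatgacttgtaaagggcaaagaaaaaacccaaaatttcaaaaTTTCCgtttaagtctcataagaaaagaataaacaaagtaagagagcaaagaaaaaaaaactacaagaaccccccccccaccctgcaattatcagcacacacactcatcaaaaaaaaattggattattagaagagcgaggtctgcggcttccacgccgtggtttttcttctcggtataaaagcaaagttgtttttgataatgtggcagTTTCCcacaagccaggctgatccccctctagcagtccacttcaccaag
Foxp3, second start: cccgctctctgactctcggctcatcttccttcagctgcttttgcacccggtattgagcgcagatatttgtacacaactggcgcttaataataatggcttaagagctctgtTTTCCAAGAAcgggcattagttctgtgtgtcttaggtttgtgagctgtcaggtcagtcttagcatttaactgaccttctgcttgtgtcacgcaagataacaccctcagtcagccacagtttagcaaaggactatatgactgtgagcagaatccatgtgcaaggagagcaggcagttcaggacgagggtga
Tnfrsf4: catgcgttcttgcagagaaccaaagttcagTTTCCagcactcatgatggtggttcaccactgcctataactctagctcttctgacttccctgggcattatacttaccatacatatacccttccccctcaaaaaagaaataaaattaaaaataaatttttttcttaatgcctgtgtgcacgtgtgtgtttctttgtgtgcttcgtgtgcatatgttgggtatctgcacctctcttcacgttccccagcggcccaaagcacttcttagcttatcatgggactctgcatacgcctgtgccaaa
Tnfrsf18: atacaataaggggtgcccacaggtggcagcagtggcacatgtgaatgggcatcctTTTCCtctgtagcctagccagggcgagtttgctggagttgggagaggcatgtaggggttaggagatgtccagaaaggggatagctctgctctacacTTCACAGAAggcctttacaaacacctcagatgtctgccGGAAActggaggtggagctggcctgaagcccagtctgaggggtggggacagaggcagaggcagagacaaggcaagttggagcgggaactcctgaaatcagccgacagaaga
Windows could be matched for 6 of the 10 genes, 7 windows in all. A STAT5 element was found in the second Foxp3 window, where its letters overlap an NFAT core, and in the Tnfrsf18 window; 8.3% of 32851 mouse promoter windows hold one. An NFAT core was found in 5 of the 7 windows, among them each of the 4 printed, and in 61.3% of all windows; the Ccr8 and Gpr83 windows hold none. The cAMP response element TGACGTCA, which 1.79% of windows hold, was in 0 of the 7 windows. Such matches are letters in a window and were not tested as binding sites.

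Libraries held between 54683838 (WT-Guanabenz 1) and 491137160 (WT-Control 3) estimated counts. Levels are given as CPM, counts scaled to library size by the TMM method. The edgeR quasi-likelihood test was fitted to all 18 libraries and 16125 genes, and a call is a Benjamini-Hochberg adjusted p under 0.05 over all of those genes. Adra2a itself was low in every library, at 0.0917 to 0.293 CPM in KO tumours and 0.286 to 0.589 CPM in WT tumours, with the library KO-Clonidine 2 just above WT-Control 3. Transcripts of Y-linked genes were present in 0 of 3 KO-Clonidine, 2 of 3 KO-Guanabenz, 2 of 3 KO-Control, 2 of 3 WT-Clonidine, 2 of 3 WT-Guanabenz and 3 of 3 WT-Control libraries. In bulk RNA, fewer cells of a type and less RNA per cell cannot be told apart.

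The regulatory T cell genes were rare transcripts, and all 10 passed the filter on low counts. Per kilobase of the longest coding transcript, Tnfrsf18 and Lrrc32 had the highest median levels over the 18 libraries, 2.86 and 2.68 CPM per kb. Tnfrsf4 stood at 2.23 CPM per kb, close to Cd3e at 2.52 and Cd4 at 1.86 CPM per kb. Foxp3 had a median of 0.53 CPM per kb, from 79 to 984 counts per library, Ccr8 0.374 CPM per kb from 8 to 249 counts, and Ikzf4 0.156 CPM per kb from 26 to 361 counts. Gpr83, a G protein-coupled receptor enriched in mouse regulatory T cells, was close to the limit of detection, with 0 to 54 counts and a highest level of 0.115 CPM; it had 0 counts in WT-Guanabenz 2. The spread of single genes over libraries was wide. Ccr8 differed by 6.13 times between its lowest library, KO-Clonidine 1, and its highest, WT-Clonidine 1, and Foxp3 by 3.73 times between KO-Clonidine 3 and WT-Clonidine 1. Of the 10 genes, 6 had their highest level in the library WT-Clonidine 1.

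Among the transcription factors, Foxp3 had 1.32, 2.36 and 0.948 CPM in KO-Clonidine tumours, 1.34, 1.14 and 2.34 CPM in KO-Guanabenz tumours (label conflict) and 2.11, 2.08 and 2.49 CPM in KO-Control tumours. In WT hosts Foxp3 had 3.54, 3.48 and 2.96 CPM with clonidine, 1.75, 1.94 and 2.48 CPM with guanabenz, and 1.99, 1.96 and 1.69 CPM with PBS. All 3 WT-Clonidine libraries lay above the other 15, while the KO-Clonidine and KO-Guanabenz groups each held 2 low libraries and 1 at the level of the controls. The means were 1.54 ± 0.732 (KO-Clonidine), 1.61 ± 0.648 (KO-Guanabenz), 2.23 ± 0.229 (KO-Control), 3.33 ± 0.321 (WT-Clonidine), 2.05 ± 0.38 (WT-Guanabenz) and 1.88 ± 0.165 CPM (WT-Control; SD, n = 3 each). In order of the means, every neighbouring pair of groups below WT-Clonidine overlapped.

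Ikzf4 (Eos), a zinc finger partner of Foxp3 in gene repression, had 0.717, 0.617 and 0.602 CPM in KO-Clonidine, 0.838, 0.821 and 0.751 CPM in KO-Guanabenz (label conflict) and 0.791, 0.782 and 0.906 CPM in KO-Control tumours. In WT tumours Ikzf4 had 1.69, 1.28 and 1.30 CPM with clonidine, 0.478, 0.778 and 0.991 CPM with guanabenz, and 0.893, 0.843 and 0.712 CPM with PBS. The WT-Clonidine libraries again lay above the other 15, and the KO-Clonidine libraries lay below both KO-Control and WT-Clonidine. Ikzf2 (Helios), a related factor found in most thymus-derived regulatory T cells and also in other T cells, had 5.95, 7.10 and 5.62 CPM in KO-Clonidine, 7.37, 6.73 and 7.89 CPM in KO-Guanabenz (label conflict) and 7.92, 5.37 and 5.18 CPM in KO-Control tumours. Its levels in WT tumours were 9.45, 9.11 and 10.0 CPM with clonidine, 6.4, 7.12 and 6.45 CPM with guanabenz, and 9.05, 6.83 and 6.81 CPM with PBS. The lowest WT-Clonidine library was above WT-Control 1 by a small margin. Foxp3, Ikzf4 and Ikzf2 were the 3 of 10 genes whose WT-Clonidine libraries all exceeded the other 15, which 0.868% of tested genes did. For 0 of 10 genes did any other group stand above or below all other libraries. Of tested genes, 0.0744% to 0.54% did so for each such group and direction. The 0 of 10 is thus not read as particular to these genes.

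**Figure D1:**
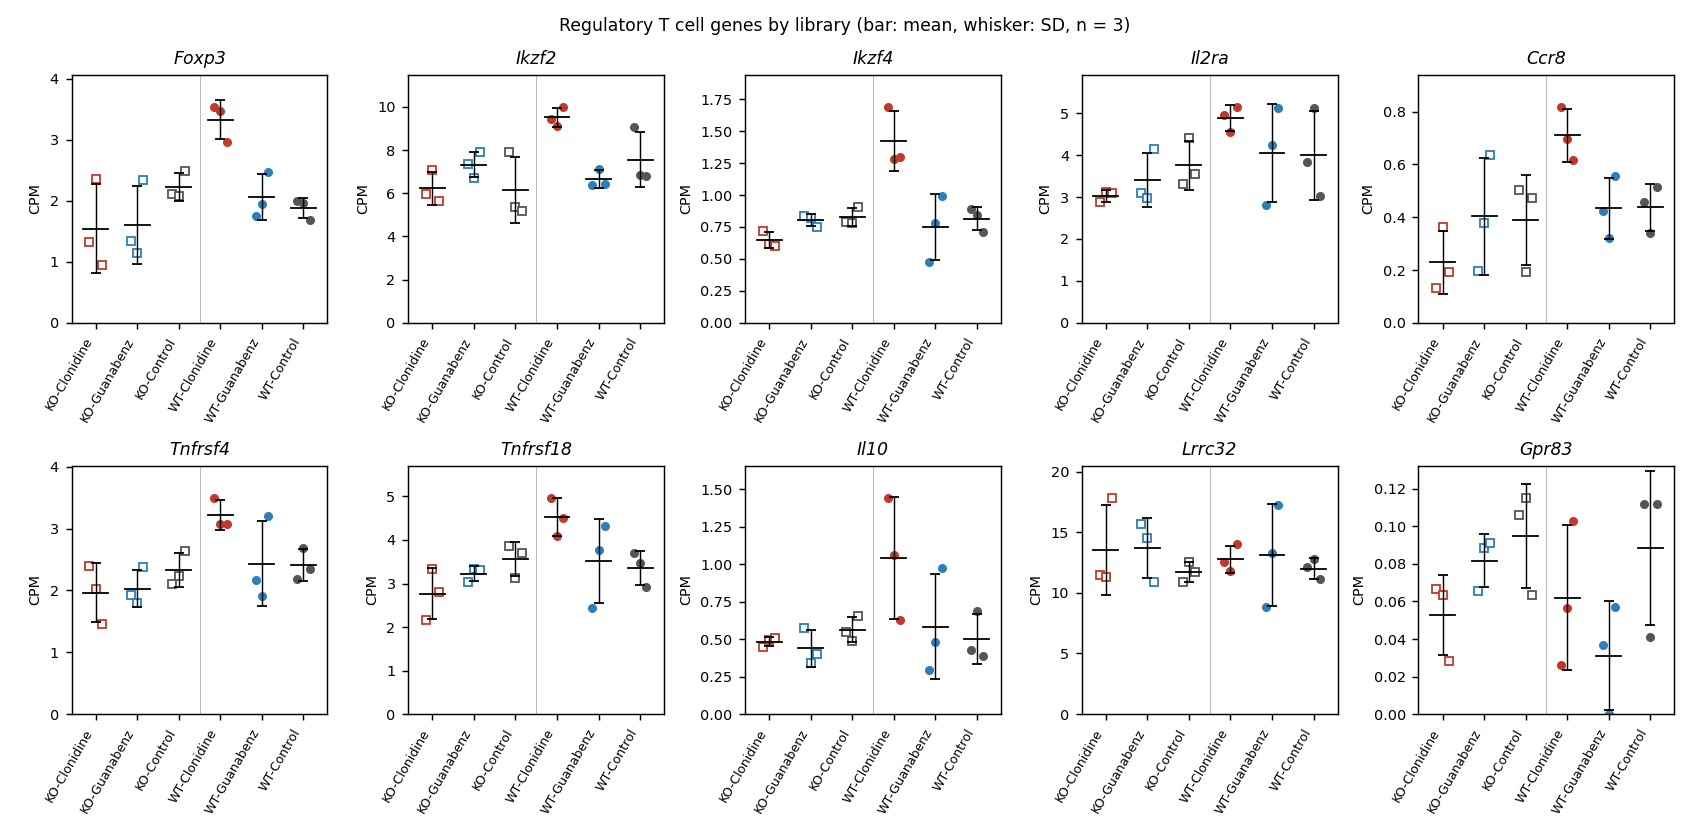
Levels (CPM, linear axes from 0) of the 10 regulatory T cell genes in the 3 libraries of each group, with KO groups as open squares and WT groups as filled circles; horizontal bars are means and whiskers SD (n = 3). The Foxp3, Ikzf2 and Ikzf4 libraries of WT-Clonidine lie above the other 15, while Lrrc32 and Gpr83 show no such order.

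Among the receptors, Il2ra had 2.87 to 3.13 CPM in KO-Clonidine, 2.98 to 4.15 CPM in KO-Guanabenz (label conflict) and 3.31 to 4.42 CPM in KO-Control tumours, and 4.54 to 5.15 CPM in WT-Clonidine, 2.81 to 5.12 CPM in WT-Guanabenz and 3.03 to 5.13 CPM in WT-Control tumours. The WT-Clonidine values were close together, and the other WT groups overlapped them. Ccr8 had 0.133, 0.364 and 0.191 CPM in KO-Clonidine and 0.502, 0.192 and 0.471 CPM in KO-Control tumours, and 0.818, 0.696 and 0.616 CPM in WT-Clonidine and 0.457, 0.339 and 0.515 CPM in WT-Control tumours. The clonidine groups of both genotypes did not overlap for Ccr8, and the WT groups given clonidine or PBS did not overlap either. Tnfrsf4 had 2.40, 2.03 and 1.46 CPM in KO-Clonidine, against 3.49, 3.08 and 3.08 CPM in WT-Clonidine and 2.19, 2.69 and 2.35 CPM in WT-Control tumours. Tnfrsf18 had 2.17, 3.34 and 2.80 CPM in KO-Clonidine, against 4.96, 4.10 and 4.51 CPM in WT-Clonidine and 3.70, 3.46 and 2.93 CPM in WT-Control tumours. Both neighbours on chromosome 4 were thus highest in WT-Clonidine by group mean and lowest in KO-Clonidine.

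The secreted and surface effectors behaved apart from each other. Il10, the gene of interleukin 10, which macrophages also make, had 0.450, 0.491 and 0.510 CPM in KO-Clonidine, against 1.44, 1.06 and 0.628 CPM in WT-Clonidine tumours. WT-Control tumours had 0.426, 0.689 and 0.385 CPM of Il10, so WT-Control 2 lay inside the WT-Clonidine range. Lrrc32, which endothelial cells and platelets also express, had 11.3 to 17.8 CPM in KO-Clonidine and 10.9 to 12.5 CPM in KO-Control tumours, and 11.8 to 14.0 CPM in WT-Clonidine and 11.1 to 12.8 CPM in WT-Control tumours. Its groups overlapped in all 7 comparisons between 2 groups, and so did those of Gpr83.

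Of 9 comparisons, only that between genotypes under clonidine gave called genes among the 10 in edgeR. In KO-Clonidine against WT-Clonidine tumours, 9 of 10 genes had a negative log2 change (48.3% of all tested genes had a positive one), and Ikzf4 and Ikzf2 fell (edgeR quasi-likelihood test, Benjamini-Hochberg adjusted over all genes). Ikzf4 averaged 0.645 ± 0.0626 CPM in KO-Clonidine and 1.42 ± 0.235 CPM in WT-Clonidine, a log2 change of -1.15 (SE 0.22, adjusted p = 0.0217). Ikzf2 averaged 6.22 ± 0.777 CPM in KO-Clonidine and 9.53 ± 0.469 CPM in WT-Clonidine, a log2 change of -0.61 (SE 0.15, adjusted p = 0.0476). So 2 of 10 genes were called, beside 2.5% of all tested genes in either direction. For Foxp3 the log2 change was -1.11 (SE 0.29, adjusted p = 0.0543), for Ccr8 -1.59 (SE 0.43, adjusted p = 0.059), for Tnfrsf18 -0.70 (SE 0.19, adjusted p = 0.06) and for Tnfrsf4 -0.72 (SE 0.21, adjusted p = 0.0698). These 4 genes did not pass, nor did Il2ra (-0.68, adjusted p = 0.0913) and Il10 (-1.11, adjusted p = 0.117). Of the 10 genes, 8 had an unadjusted p under 0.05 and a lower level, beside 8.48% of tested genes, and in the same 8 genes the KO-Clonidine and WT-Clonidine libraries did not overlap, beside 12.8% of tested genes lower in that way. The median log2 change of the 10 genes was -0.71, and that of all tested genes -0.01. Lrrc32 had a log2 change of 0.09 (SE 0.21) and Gpr83 of -0.20 (SE 0.64).

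The 2 calls were lost in most fits with 1 library left out. Calls over all genes fell in these fits too, from 403 to between 1 and 312. The loss is thus not read as particular to these genes. Log2 changes stayed between -1.22 and -1.0 for Ikzf4 and between -0.72 and -0.54 for Ikzf2. The count of called regulatory T cell genes fell to 0 without KO-Clonidine 1, KO-Clonidine 3 or any 1 of the 3 WT-Clonidine libraries. Ikzf4 then had adjusted p-values up to 0.0918 (edgeR). Without KO-Clonidine 2, the KO-Clonidine library with the most Foxp3, the count was 5, beside 1.93% of all genes in that fit. DESeq2 called 6 of the genes, beside 7.13% of all genes by DESeq2, and limma-voom with quality weights called 8, beside 7.85% of all genes by limma-voom. DESeq2 gave no adjusted p for Ccr8 and Gpr83 in this comparison, so it could not call them. KO-Clonidine has no library with Y-linked transcripts and WT-Clonidine has 2; with a term for them 3 genes were called, Foxp3 (log2 change -1.36, adjusted p = 0.047), Ikzf4 and Tnfrsf4, and Ikzf2 was not, beside 1.32% of all genes in that fit.

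T cell lineage genes had negative log2 changes in the same comparison, most of them without passing. Cd3e had 1.87, 3.70 and 3.24 CPM in KO-Clonidine, against 6.63, 6.05 and 4.53 CPM in WT-Clonidine tumours (log2 change -0.96, SE 0.30, adjusted p = 0.0961). Of 16 T cell lineage genes, all 16 had a negative log2 change and 2 were called, the surface receptors Cd5 (-1.36, SE 0.24, adjusted p = 0.0197) and Cd6 (-1.23, SE 0.28, adjusted p = 0.0335), with a list median of -0.72. Among the 16, 11 had an unadjusted p under 0.05 and a lower level, beside 8.48% of tested genes. In 13 the KO-Clonidine libraries lay wholly below WT-Clonidine, beside 12.8% of tested genes. Cd4 did not share the size of this difference: its levels were 5.09, 6.98 and 4.49 CPM in KO-Clonidine and 6.33, 5.21 and 6.11 CPM in WT-Clonidine tumours, with a log2 change of -0.09 (95% interval -0.56 to 0.39). With each library's Cd3e level as a covariate, 0 of 10 regulatory T cell genes were called, beside 0% of all genes in that fit, and Foxp3 and Ikzf4 had log2 changes of -1.05 and -1.01 (adjusted p = 0.366 and 0.294, edgeR). With the Cd4 level as covariate 5 were called, Foxp3, Ikzf2, Ikzf4, Ccr8 and Tnfrsf18, beside 3.38% of all genes in that fit. The adjusted p of Foxp3 over all alternatives ran from 0.00533 to 0.366, with log2 changes between -1.57 and -0.84.

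Lists of markers of other cell types had 0 genes called each in this comparison. Summed NK cell markers were 16.6 to 19.5 CPM in KO-Clonidine and 23.6 to 30.1 CPM in WT-Clonidine, with 8 of 8 negative in log2 change and 2 of them at an unadjusted p under 0.05. Summed endothelial markers were 218 to 253 CPM in KO-Clonidine and 259 to 279 CPM in WT-Clonidine, with 8 of 10 negative and 3 of them at an unadjusted p under 0.05. Summed mast cell markers were 13.9 to 24.3 CPM in KO-Clonidine and 20.1 to 32.8 CPM in WT-Clonidine, with 7 of 7 negative and 1 of them at an unadjusted p under 0.05. Markers of migratory dendritic cells had a median log2 change of -0.89, with 5 of 6 negative and 4 of them at an unadjusted p under 0.05. Their summed level, 440 to 532 CPM in KO-Clonidine and 462 to 519 CPM in WT-Clonidine, overlapped. That sum says little about Ccr7, Ccl22 and Ccl17, the list's genes with the smallest p. They reached at most 5.8, 8.77 and 3.21 CPM in any library. B cell markers had a median of -0.36 with 7 of 8 negative and 0 at an unadjusted p under 0.05, and summed to 6.14 to 7.96 CPM in KO-Clonidine and 7.55 to 9.13 CPM in WT-Clonidine. Macrophage markers overlapped, at 3720 to 4220 CPM in KO-Clonidine and 3750 to 4440 CPM in WT-Clonidine, with 4 of 10 negative and 0 at an unadjusted p under 0.05. In none of the 6 groups was a marker at 0 in all 3 libraries, and the part of NK, endothelial, mast, migratory dendritic and B cells in the differences above was not tested.

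**Figure D2:**
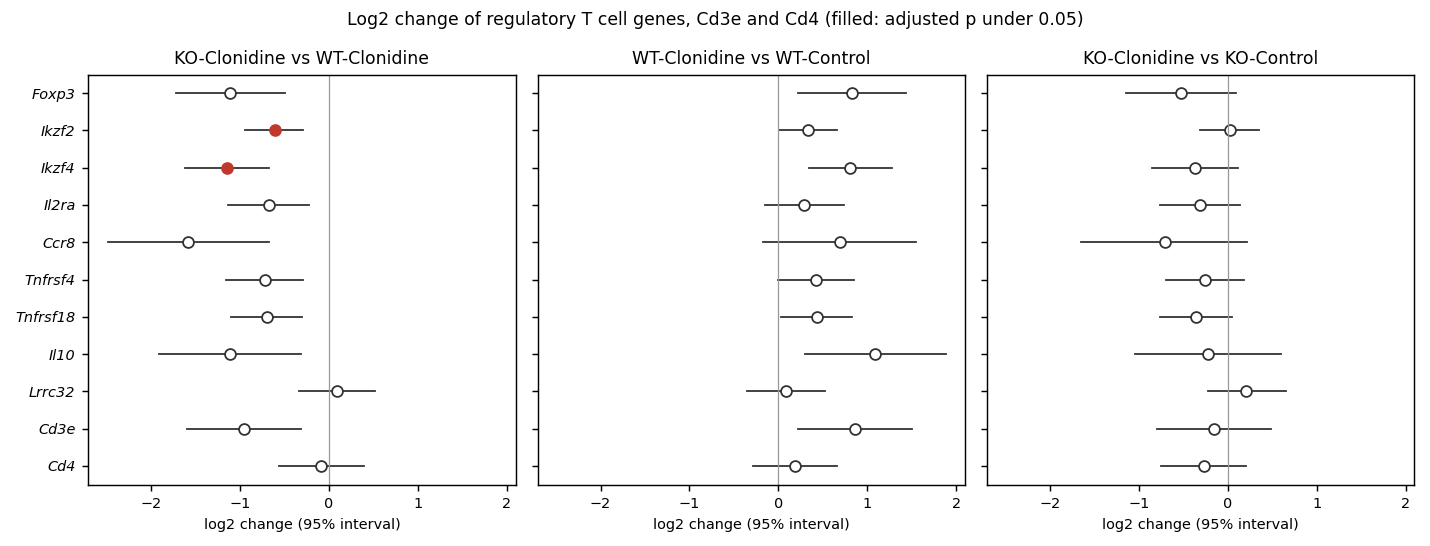
Log2 change (point) and 95% interval (line) from edgeR of 9 regulatory T cell genes, Cd3e and Cd4 in 3 comparisons; filled red points have an adjusted p under 0.05. Ikzf2 and Ikzf4 are filled, in KO-Clonidine against WT-Clonidine, and Lrrc32 and Cd4 sit near 0 there.

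Clonidine in WT hosts gave the second comparison. In WT-Clonidine against WT-Control tumours, 9 of 10 genes had a positive log2 change, as had 50.8% of all tested genes, with a median of 0.42 and of 0.00 over all tested genes, and edgeR called 0 of 10, beside 0% of all genes. Foxp3 averaged 3.33 ± 0.321 CPM in WT-Clonidine and 1.88 ± 0.165 CPM in WT-Control (log2 change 0.83, SE 0.29, adjusted p = 0.238). Il10 averaged 1.04 ± 0.405 CPM in WT-Clonidine and 0.50 ± 0.165 CPM in WT-Control (1.09, SE 0.37, adjusted p = 0.232), and Ikzf4 1.42 ± 0.235 CPM in WT-Clonidine and 0.816 ± 0.0934 CPM in WT-Control (0.81, SE 0.22, adjusted p = 0.159). Of the 10 genes, 5 had an unadjusted p under 0.05 and a higher level, beside 5.98% of tested genes. In 6 of 10 (Foxp3, Ikzf2, Ikzf4, Ccr8, Tnfrsf4 and Tnfrsf18) the WT-Clonidine libraries lay wholly above WT-Control, beside 11.1% of tested genes. DESeq2 called 1 of the genes, Ikzf4 (adjusted p = 0.0283), beside 2.19% of all genes by DESeq2. It gave no adjusted p for Il10, Ccr8 and Gpr83 here, so it could not call them. Limma-voom called 3, Foxp3 (adjusted p = 0.011), Ikzf4 (0.0142) and Il10 (0.0157), beside 4.79% of all genes by limma-voom. Over all alternatives the adjusted p of Foxp3 ran from 0.011 to 0.774, that of Ikzf4 from 0.0142 to 0.741 and that of Il10 from 0.0157 to 0.874. T cell lineage genes had a median of 0.74 with 16 of 16 positive and 0 called, and their summed level was 58.7 to 78.8 CPM in WT-Clonidine and 34.9 to 48.3 CPM in WT-Control. Of these 16 genes, 13 had an unadjusted p under 0.05 and a higher level, and 11 lay wholly above WT-Control. The counts of the 10 regulatory T cell genes are thus not read as particular to them among T cell genes. Mast cell markers summed to 20.1 to 32.8 CPM in WT-Clonidine and 10.2 to 15.4 CPM in WT-Control, with 7 of 7 positive. Endothelial markers summed to 259 to 279 CPM in WT-Clonidine and 219 to 249 CPM in WT-Control, with 8 of 10 positive. B cell markers summed to 7.55 to 9.13 CPM in WT-Clonidine and 5.86 to 7.44 CPM in WT-Control, with 8 of 8 positive, and NK cell markers to 23.6 to 30.1 CPM in WT-Clonidine and 17.4 to 23.9 CPM in WT-Control, with 7 of 8 positive. Markers of migratory dendritic cells had a median of 0.46, with 5 of 6 positive. None of these lists held a called gene, and their part in the result was not tested.

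In KO hosts most of the genes had the opposite sign under clonidine, with none past the threshold. In KO-Clonidine against KO-Control tumours, edgeR called 0 of 10 genes, beside 0.0186% of all genes. DESeq2 and limma-voom also called 0 of 10, while they called 29 and 3 of all genes, and 0 of 10 reached an unadjusted p under 0.05, as 5.52% of tested genes did. A negative log2 change was seen in 8 of 10 (50.3% of tested genes had a positive one), with a median of -0.33 against 0.00 for all tested genes. Foxp3 averaged 1.54 ± 0.732 CPM in KO-Clonidine and 2.23 ± 0.229 CPM in KO-Control (log2 change -0.53, 95% interval -1.15 to 0.09). Ikzf4 and Il2ra were the 2 genes whose KO-Clonidine libraries lay wholly below KO-Control, beside 4.43% of tested genes. The interaction, the clonidine effect in WT minus that in KO hosts, had a median of 0.73 over the 10 genes and 0.00 over all genes, with 0 called by edgeR, beside 0% of all genes. DESeq2 and limma-voom also called 0 of 10, and 33 and 2 of all genes. The interaction was 1.35 for Foxp3 (SE 0.41, adjusted p = 0.42) and 1.18 for Ikzf4 (SE 0.32, adjusted p = 0.395), and 6 of 10 genes had an unadjusted p under 0.05 with a higher effect in WT hosts, beside 4.07% of tested genes. Of 16 T cell lineage genes 8 did so, with a list median of 0.77. The WT-Control and KO-Control libraries enter these comparisons as shared controls, and WT-Clonidine enters both the drug and the genotype comparison, so the values are not independent.

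With guanabenz, none of the 10 genes passed in either genotype. In WT-Guanabenz against WT-Control tumours, edgeR called 0 of 10 genes, beside 0% of all genes, 0 reached an unadjusted p under 0.05 (11.4% of tested genes did), and the median log2 change was 0.03. DESeq2 and limma-voom also called 0 of 10, and 173 and 6 of all genes. Foxp3 averaged 2.05 ± 0.38 CPM in WT-Guanabenz and 1.88 ± 0.165 CPM in WT-Control (0.14, 95% interval -0.47 to 0.75). The titled KO-Guanabenz tumours, whose treatment label reads Untreated, had 0 of 10 genes called against KO-Control by edgeR, beside 0.0124% of all genes, 0 at an unadjusted p under 0.05 (15.1% of tested genes) and a median of -0.14. DESeq2 and limma-voom also called 0 of 10 there, and 443 and 343 of all genes. Foxp3 averaged 1.61 ± 0.648 CPM in KO-Guanabenz and 2.23 ± 0.229 CPM in KO-Control (-0.47, 95% interval -1.09 to 0.15). For the difference of these guanabenz effects, WT minus KO, edgeR called 0 of 10 genes, beside 0.0062% of all genes, with 0 at an unadjusted p under 0.05 (5.71% of tested genes) and a median of 0.06; DESeq2 and limma-voom also called 0 of 10, and 13 and 2 of all genes.

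Both agonists were given to WT hosts at doses that are unknown here, so their values only stand side by side. In WT-Clonidine against WT-Guanabenz tumours 9 of 10 genes had a positive log2 change, against 48.3% of tested genes, with a median of 0.59. Ikzf4 differed by 0.90 (SE 0.22), Foxp3 by 0.69 (SE 0.29, 95% interval 0.08 to 1.30) and Ikzf2 by 0.52 (SE 0.16), all with an adjusted p of 0.957 from edgeR, so the agonists were not shown to differ. None of the 10 genes was called by edgeR, beside 0% of all genes, nor by DESeq2 or limma-voom, which called 4 and 1 of all genes. Of the 10, 4 had an unadjusted p under 0.05 with a higher level, beside 2.57% of tested genes. In 4 of 10, Foxp3, Ikzf2, Ikzf4 and Ccr8, the WT-Clonidine libraries lay wholly above WT-Guanabenz, beside 5.33% of tested genes.

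Without either drug, none of the 10 genes passed between genotypes. In KO-Control against WT-Control tumours edgeR called 0 of 10 genes, beside 0.0062% of all genes, and DESeq2 and limma-voom also called 0 of 10, and 17 and 1 of all genes. Of the 10 genes, 0 reached an unadjusted p under 0.05 (3.68% of tested genes did), and the median log2 change was -0.01 with 5 of 10 positive (50.1% of tested genes). Foxp3 was the 1 gene whose KO-Control libraries (2.08 to 2.49 CPM) lay wholly above WT-Control (1.69 to 1.99 CPM), with a log2 change of 0.25 (95% interval -0.36 to 0.86); 4.56% of tested genes were higher in that way.

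Set against T cell genes, the values depended on the T cell gene used. Count ratios were compared with an exact two-sided permutation test over 3 against 3 libraries, which cannot give a p below 0.1, so no ratio could pass 0.05 over the 10 genes and 7 comparisons. The ratio of Foxp3 to Cd3e counts was 0.707, 0.637 and 0.293 in KO-Clonidine, 0.284, 0.220 and 0.663 in KO-Guanabenz (label conflict) and 0.538, 0.744 and 0.788 in KO-Control tumours. In WT tumours it was 0.535, 0.575 and 0.653 with clonidine, 0.864, 0.444 and 0.696 with guanabenz, and 1.02, 0.511 and 0.46 with PBS. Per Cd3e count, the WT-Clonidine libraries were thus inside the range of the WT-Control libraries, unlike their Foxp3 level. The mean log2 ratio differed by -0.09 between WT-Clonidine and WT-Control (exact permutation p = 1; -0.30 to 0.27 without 1 library) and by -0.20 between KO-Clonidine and WT-Clonidine (exact permutation p = 0.9; -0.44 to 0.20 without 1 library).

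Ratios to Cd4 counts were compared in the same way. Cd4 had an r of 0.11 with Cd3e across the 18 libraries, and which cells held its transcripts was not tested. A ratio to Cd4 is therefore not read here as a share of CD4+ T cells. For Foxp3 the groups overlapped in 4 of the 7 comparisons and did not in 3. The log2 ratio of Foxp3 to Cd4 counts was -1.94, -1.56 and -2.24 in KO-Clonidine and -0.84, -0.58 and -1.05 in WT-Clonidine tumours, a mean difference of -1.09 (exact permutation p = 0.1, the smallest possible). In WT-Control tumours it was -1.70, -1.16 and -1.46, and WT-Clonidine exceeded these by 0.62 with no overlap (exact permutation p = 0.1). Between KO-Clonidine and WT-Clonidine 7 of 10 genes had a wholly lower ratio to Cd4, beside 4.56% of tested genes, with a median difference of -0.62. Relative to Cd3e only Ccr8 did (-0.71, exact permutation p = 0.1), beside 0.149% of tested genes, and the median difference was 0.27; 70.4% of all tested genes had a wholly higher ratio to Cd3e there, where Cd3e itself was lower in KO-Clonidine. Between WT-Clonidine and WT-Control 2 of 10 genes (Foxp3 and Ikzf4) had a wholly higher ratio to Cd4, beside 1.2% of tested genes, and 0 of 10 a wholly higher or lower ratio to Cd3e, beside 0.0992% higher and 69.7% lower. The ratio of Cd4 to Cd3e itself was higher in KO-Clonidine than in WT-Clonidine (log2 difference 0.89, exact permutation p = 0.1). With summed T cell lineage counts as reference, the median difference between KO-Clonidine and WT-Clonidine was -0.02. Of the 10 genes, 4 were higher and 6 lower. Cd8a as reference, chosen after seeing the data, gave the same median and counts. Foxp3 had mean log2 ratios to the summed lineage counts of -4.84 ± 0.6 in KO-Clonidine, -4.35 ± 0.11 in WT-Clonidine and -4.49 ± 0.32 in WT-Control (SD).

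In the titled KO-Guanabenz tumours (label conflict) ratios to Cd3e were lower than in KO-Control for most of the genes tested. All 10 regulatory T cell genes had a lower mean ratio, as had 94.9% of all tested genes, with a median difference of -0.57 for the 10 genes and -0.44 for all tested genes. Of the 10, Tnfrsf18 (-0.57) and Il10 (-0.82) had no overlap (exact permutation p = 0.1 for each), beside 15.0% of tested genes. For Foxp3 the difference was -0.98 (exact permutation p = 0.2), between -1.45 without KO-Guanabenz 3 and -0.65 without KO-Guanabenz 2. Cd3e and the coreceptor Cd8a did not pass between these groups: Cd3e had 4.73, 5.19 and 3.54 CPM in KO-Guanabenz and 3.94, 2.80 and 3.16 CPM in KO-Control (log2 change 0.45, adjusted p = 0.526, edgeR), and Cd8a had 12.4, 14.0 and 6.99 CPM in KO-Guanabenz and 8.36, 5.37 and 4.67 CPM in KO-Control (0.86, adjusted p = 0.279, edgeR). Relative to Cd4 the median difference was 0.02, with 1 of 10 genes, Foxp3, wholly lower (-0.38, exact permutation p = 0.1), beside 1.09% of tested genes.

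**Figure D3:**
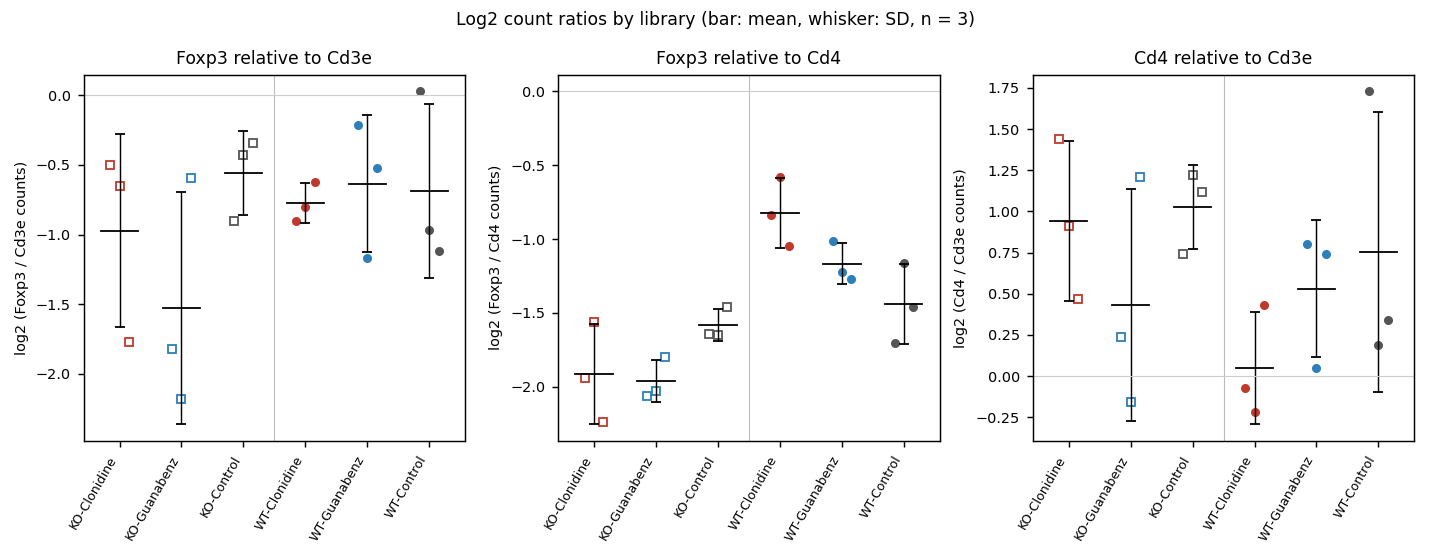
Log2 ratio of counts in each library for Foxp3 over Cd3e, Foxp3 over Cd4 and Cd4 over Cd3e; KO groups are open squares and WT groups filled circles, bars are means and whiskers SD (n = 3). WT-Clonidine stands above KO-Clonidine and WT-Control in Foxp3 over Cd4, and lies among the other groups in Foxp3 over Cd3e.

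Across the 18 libraries, levels of the regulatory T cell genes were related to Cd3e and Cd4 on the log2 CPM scale, with 22 correlations in all and p-values adjusted over 16124 genes. For Foxp3 and Cd3e, Pearson's r was 0.37 (permutation p = 0.136, adjusted p = 0.547) and Spearman's rho 0.30 (permutation p = 0.223, adjusted p = 0.596). Without the libraries farthest from the median of Cd3e, KO-Clonidine 1 and WT-Control 1, r was 0.31, and over deviations from the group means it was 0.04 (exact permutation p = 0.918). So Foxp3 and Cd3e were not shown to be related within groups. Tnfrsf18 had the highest r with Cd3e, 0.66 (permutation p = 0.00282, adjusted p = 0.153), and 0.55 within groups (exact permutation p = 0.115). None of the 10 genes passed, beside 0.422% of all genes that passed with a positive r.

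Correlations with Cd4 were computed in the same way. For Foxp3 and Cd4, r was 0.49 (permutation p = 0.0378, adjusted p = 0.752) and rho 0.60 (permutation p = 0.00947, adjusted p = 0.719), and r was 0.55 without WT-Guanabenz 1 and KO-Guanabenz 3, the libraries farthest from the median of Cd4. Over deviations from the group means r was 0.81 (exact permutation p = 0.0018, adjusted p = 0.29). None of the 10 genes passed over all genes, beside 0.0% of all genes, and the difference between the correlations with Cd4 and Cd3e was not tested. Cd4 and Cd3e themselves had an r of 0.11. Each pair of values comes from 1 library and shares its depth and its tumour.

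**Figure D4:**
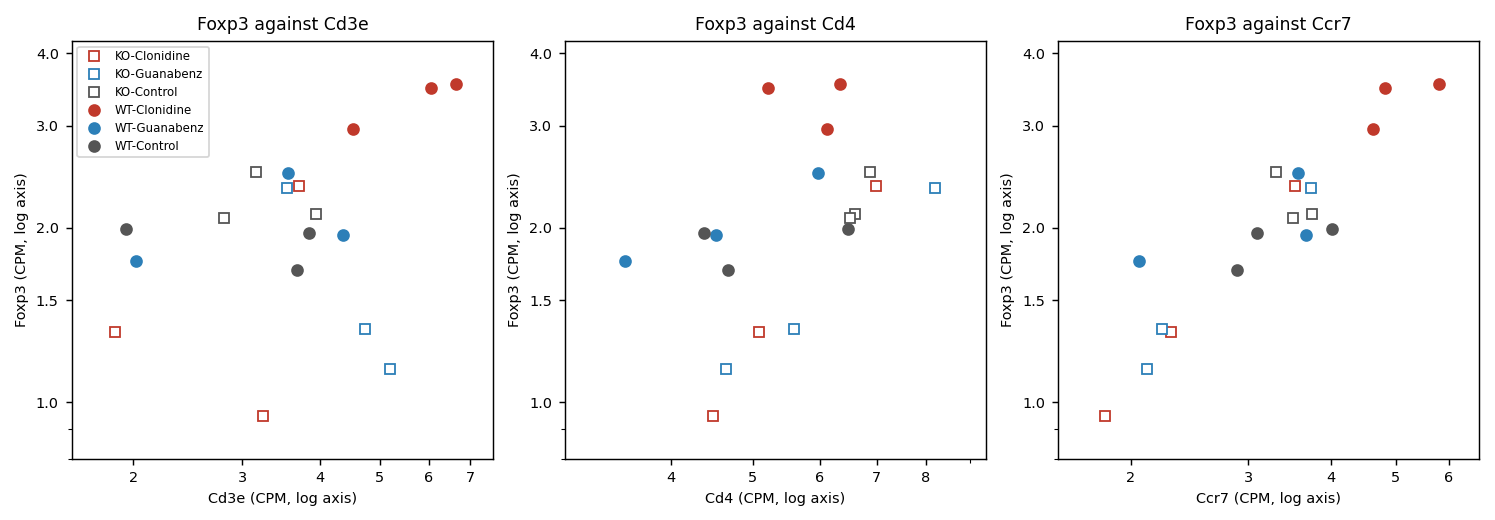
Foxp3 level against Cd3e, Cd4 and Ccr7 levels in the 18 libraries (CPM, log axes), KO groups as open squares and WT groups as filled circles. Foxp3 scatters widely against Cd3e (r = 0.37) and Cd4 (r = 0.49) and lies near a line against Ccr7 (r = 0.92). Cd3e and Cd4 were set beforehand, while Ccr7 was picked as the gene with the highest r among those ranked.

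Among the regulatory T cell genes themselves, Tnfrsf4 followed Foxp3 most closely over the 18 libraries, with r = 0.83, the rank 29 of 16124 genes. Ccr8 (r = 0.75), Tnfrsf18 (0.74) and Il2ra (0.70) came next, then Ikzf4 (0.67), Il10 (0.64) and Ikzf2 (0.54). Gpr83 (0.03) and Lrrc32 (-0.30) did not follow Foxp3 in these tumours. Of all 16124 genes, 0.18% had an r with Foxp3 as high as Tnfrsf4, 2.56% as high as Il10 and 6.07% as high as Ikzf2. The r of Ikzf2 was thus little apart from that of many other genes. Within groups r was lower for each of Tnfrsf4 (0.62), Ccr8 (0.60), Ikzf2 (0.35), Il10 (0.31) and Ikzf4 (0.23). These are descriptions over libraries that differ in drug and genotype.

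The 10 genes whose pattern was most like that of Foxp3, by Pearson's r of log2 CPM over 18 libraries among 12689 genes with a mean log2 CPM of at least 0, were led by Ccr7 (r = 0.92), the chemokine receptor of naive T cells and migrating dendritic cells. Ccl22 (0.91) and Ccl17 (0.87) encode chemokines that dendritic cells make and that bind Ccr4. Flt3 (0.88), a receptor needed for dendritic cell development, and Cd209a (0.88) and Zfp366 (0.87, DC-SCRIPT), both known from dendritic cells, were also among the 10. Ctla4 (0.88), the inhibitory receptor that regulatory T cells carry, was the gene of this group usually listed with regulatory T cells; Napsa (0.91), Fxyd2 (0.90) and Cd200r1 (0.89) made up the rest. Over deviations from the group means r stayed between 0.72 and 0.84 for all 10. Ccr7 had 2.30, 3.53 and 1.83 CPM in KO-Clonidine, against 5.80, 4.82 and 4.62 CPM in WT-Clonidine tumours, and 4.01, 3.09 and 2.89 CPM in WT-Control tumours. Its lowest library was KO-Clonidine 3 and its highest WT-Clonidine 1, as for Foxp3. All 10 genes were picked by their r with Foxp3 over these same libraries. Their r within groups and the levels of Ccr7 are drawn from the same values and are no separate evidence.

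Among other genes of the same pathways, 1 was called. The uncalled genes named here were chosen for small p-values in WT-Clonidine against WT-Control, which shares the WT-Clonidine libraries. A gene picked as high in those libraries tends to a negative log2 change between genotypes, so these values are no separate evidence. Under that rule Ccl8 and Foxo3, with the smallest p of their lists between genotypes under clonidine, were left out. In KO-Clonidine against WT-Clonidine tumours, 0 of 9 tested genes of the interleukin 2 axis were called, with a median log2 change of -0.10; the STAT5 target Cish had -0.56 (SE 0.20, adjusted p = 0.138). Of 11 ligands and receptors of these genes 0 were called, with a median of -0.14; Tnfsf18, the ligand of Tnfrsf18, had -0.71 (SE 0.26, adjusted p = 0.14) and Tgfb1 -0.14 (SE 0.06, adjusted p = 0.184). Of 14 transcription factors tied to Foxp3 0 were called, with a median of -0.22; Nfatc1 had -0.23 (SE 0.08, adjusted p = 0.109) and Irf4 -0.57 (SE 0.26, adjusted p = 0.226). Of 17 tested genes otherwise high in regulatory T cells 1 fell, the costimulatory receptor Icos, with a log2 change of -1.39 (SE 0.30, adjusted p = 0.0263), and the list median was -0.49. Tigit, an inhibitory receptor, had -0.74 (SE 0.22, adjusted p = 0.081), and Ebi3, a subunit of interleukin 35, -0.52 (SE 0.14, adjusted p = 0.0554). In the same order, 2 of 9, 5 of 11, 3 of 14 and 7 of 17 genes were lower with an unadjusted p under 0.05, beside 8.48% of all tested genes. Higher at that threshold were 1, 0, 1 and 1 genes, for which no share of all tested genes is given here. In WT-Clonidine against WT-Control tumours these lists had 0 called genes each and medians of 0.07, 0.13, 0.10 and 0.19, with 0.59 (SE 0.25) for Tnfsf18, 0.77 (SE 0.29) for Icos and 0.75 (SE 0.22) for Tigit.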

How the data were processed

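Tumour RNA was sequenced in 18 libraries. The authors deposited whole-number estimated counts for each gene; the tools are Trim Galore 0.6.5 and kallisto 0.46.0 with build GRCm38, per the submitters' processing notes. The sources used here do not give strandedness or how transcripts were summed, so overlapping and antisense genes cannot be told apart. Symbols matched 20994 of 21015 gene IDs through RefSeq, and the unmatched held at most 0.022% of counts. Groups came from sample titles.

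Here edgeR 4.0.16 (R 4.3.3) fitted 6 group means to 18 libraries after filterByExpr and TMM, leaving 16125 genes and 12 residual degrees of freedom. Alternatives were RLE scaling, no filter, a replicate block, a term for Y-linked transcripts, Cd3e or Cd4 as covariate, leaving out libraries, DESeq2 1.42.0 and voom (limma 3.58.1); Cd8a as the T cell gene was chosen after seeing the data. Correlations used log2 CPM (prior count 2) with 100000 permutations, or all 46656 within groups; ratios added 0.5 to both counts. The smallest p of 100000 permutations is 1e-05. Per-library precision is set by counts, given with the levels. Same-numbered replicates did not deviate together in every pair, so the numbers were not taken to pair libraries. Replicates of a group correlated at 0.984 to 0.9966 and none were copies. The 10 genes and the lists were chosen with earlier results of these data known. Genes most like Foxp3 were the 10 with the highest r among those with a mean log2 CPM of at least 0. From the other lists, called genes and at most the 3 with the smallest p in WT-Clonidine against WT-Control were named; Cd8a was named after its values were seen.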

Additional observations from a re-analysis of the deposited data

Results flagged for a closer look

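Groups of 3 libraries are too small for a test of outlying libraries. Of the 10 genes with either of the 2 drugs, 5 results were flagged by a rule. In these every WT library of the drug group lay on one side of its genotype's control mean and every KO library on the other. How many of all tested genes meet the same rule was not counted, so the 5 are not read as particular to these genes. The difference itself was tested as the interaction in edgeR. For clonidine, WT libraries were higher and KO libraries lower than their controls for Ikzf4 (difference of log2 changes, WT minus KO, 1.18, SE 0.32, adjusted p = 0.395), Il10 (1.30, SE 0.54, adjusted p = 0.508), Tnfrsf18 (0.78, SE 0.27, adjusted p = 0.447) and Il2ra (0.60, SE 0.30, adjusted p = 0.585). For guanabenz, WT libraries were lower and the titled KO-Guanabenz libraries, with their label conflict, higher for Ikzf2 (-0.44, SE 0.22, adjusted p = 0.875). None of the 5 passed after adjustment over all genes.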

How the results depend on the processing

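In KO-Clonidine against WT-Clonidine the count of called regulatory T cell genes was 2; it was 1 with no low-count filter, 1 with the replicate block, 1 without the KO-Guanabenz libraries, 0 with the Cd3e covariate, 5 with the Cd4 covariate, 6 by DESeq2, 8 by voom, and 0 to 5 when 1 library was left out; RLE scaling gave 2. Shares of all genes called are not given here for the fits without the filter, with the replicate block, without KO-Guanabenz or with RLE scaling. The counts of 1 and 2 in those fits are thus not read as particular to these genes. In WT-Clonidine against WT-Control the count of called regulatory T cell genes was 0, with 3 by voom and 1 by DESeq2. In the other 7 comparisons it was 0 in every alternative run. The block is given as a hint only, since replicate numbers are not stated to mark a pairing. With Cd4 in place of Cd3e the Foxp3 log2 ratio differed by 0.62 (WT-Clonidine against WT-Control), -1.09 (KO-Clonidine against WT-Clonidine) and 0.35 (WT-Clonidine against WT-Guanabenz). The Lrrc32 log2 change in KO-Clonidine against KO-Control was 0.21, and -0.04 to 0.33 without 1 library, the lowest without KO-Clonidine 3. Over deviations from group means r with Cd3e was -0.04 for Ikzf2 and -0.16 for Tnfrsf4. Of 1822 alternative values 1657 kept their direction and side of the threshold, lay within the spread or, for counts of calls, stayed near the main count. Single-gene values without an adjusted p were judged by direction alone. The causes of the rest were not tested. Single-gene log2 changes no larger than their SE were left out of that tally. Over all 1443 single-gene values tried, 74 changed sign. Over all genes, calls in KO-Clonidine against WT-Clonidine numbered 403, with 0 to 1266 over the alternatives and 1 to 312 without 1 library; in WT-Clonidine against WT-Control 0, up to 773 by voom and 55 without WT-Control 2; in KO-Guanabenz against KO-Control 2, up to 443 by DESeq2 and 85 without KO-Guanabenz 3; and in WT-Guanabenz against WT-Control 0, up to 173 by DESeq2. Depth limits Gpr83 and Ccr8, which had as few as 0 and 8 counts.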
